A study of Homo sapiens with 51 samples.

Results

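H1 human embryonic stem cells given BMP4 as the only added ligand of the TGF-beta family were compared at 36 h and at 48 h. The members are 6 of the 51 RNA-seq libraries of the series, 3 at each time, chosen by their column names. The study followed H1 cells from the untreated state through 1, 6, 12, 24, 36, 48, 72 and 96 h under either of 2 treatments, in triplicate. The group examined here received BMP4 at 50 ng/mL. The other treatment, used below only for contrast, was Activin at 100 ng/mL with BMP4 at 10 ng/mL, so the treatments differ in BMP4 dose as well as in Activin. All differentiated groups shared the same medium, TeSR E5 with insulin at 3.2 µM, FGF2 at 20 ng/mL and LY29004 (so spelled in the labels) at 1 µM. The cells came from growth factor-reduced Matrigel in mTeSR1. All of the groups come from 1 cell line, and the labels do not say whether the 3 samples of a group were separate cultures, so the p-values rest on a spread between libraries that may be technical. No genetic change is named in the labels.

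BMP4 is a secreted ligand that acts through SMAD1, SMAD5 and SMAD9. In human pluripotent cells it switches on regulators such as GATA3 and TFAP2A, and it can also raise WNT and NODAL ligands, which in turn drive the transcription factors of the primitive streak. The primitive streak is the region of the gastrulating embryo where cells leave the epiblast to form mesoderm and endoderm. BMP exposure is also used to derive cells with features of amnion, the thin epithelium that encloses the embryo.

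The 6 libraries held between 22788905 and 25865127 counts, and replicates correlated at 0.995 or above (Pearson, log2 CPM). Replicate 3 at 48 h stood somewhat apart: its chi-square per degree of freedom against the other replicates was 13.4 and 10.5, where that between the other replicates was 4.78. Its share of mitochondrial counts was 1.08%, beside 2.33% and 2.30% in replicates 1 and 2. Markers of the starting cell were abundant at both times. The summed level of 5 pluripotency markers lay between 2476 and 2512 CPM (counts scaled to a common library total) at 36 h and between 2281 and 2352 CPM at 48 h. The sum of 8 amnion markers was 162.5 to 169.7 CPM at 36 h and 372.7 to 379.3 CPM at 48 h, and that of 5 primitive streak markers 63.4 to 72.5 CPM and 337.6 to 355.9 CPM. Other cell types were checked in the same way. The 8 trophoblast markers together reached at most 0.967 CPM in any of the 6 libraries, with SIGLEC6 and PSG4 at 0 at both times. The 5 surface ectoderm markers summed to 9.30 to 11.05 CPM at 36 h and 24.2 to 25.8 CPM at 48 h, through TP63, DLX3 and DLX5, while KRT5 and KRT14 were at 0 at both times. The 4 neural markers summed to 2.26 to 7.21 CPM at 36 h and 2.98 to 4.15 CPM at 48 h. Replicate 1 at 36 h was the highest of its group, with 85 counts of SIX3 beside 34 and 26, and 55 of PAX6 beside 28 and 21. In bulk RNA, fewer cells of a type and less RNA per cell cannot be told apart.

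Between 36 h and 48 h the change was mostly a rise. Of 19603 genes tested, 461 were called (2.35%), meaning a Benjamini-Hochberg adjusted p under 0.05 in the edgeR quasi-likelihood test and at least a 2-fold change. Among them 357 were higher at 48 h (1.82% of genes tested) and 104 lower (0.531%), a ratio of 3.43, while the median log2 fold change of all genes was 0.0024. The 3 libraries of one time did not overlap the 3 of the other for 350 of the higher and 98 of the lower genes. The same separation was seen in the higher direction for 19.1% and in the lower direction for 14.9% of all genes tested. The rises were also steeper. At least a 4-fold change was found for 146 higher and 18 lower genes, and 60 genes rose at least 8-fold. Many of the rising genes started from little: 202 of the 357 averaged under 1 CPM at 36 h, and 134 reached 5 CPM or more at 48 h. Protein-coding genes made up 282 of the higher and 83 of the lower genes. Without replicate 3 at 48 h, 422 genes were called.

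**Figure D1:**
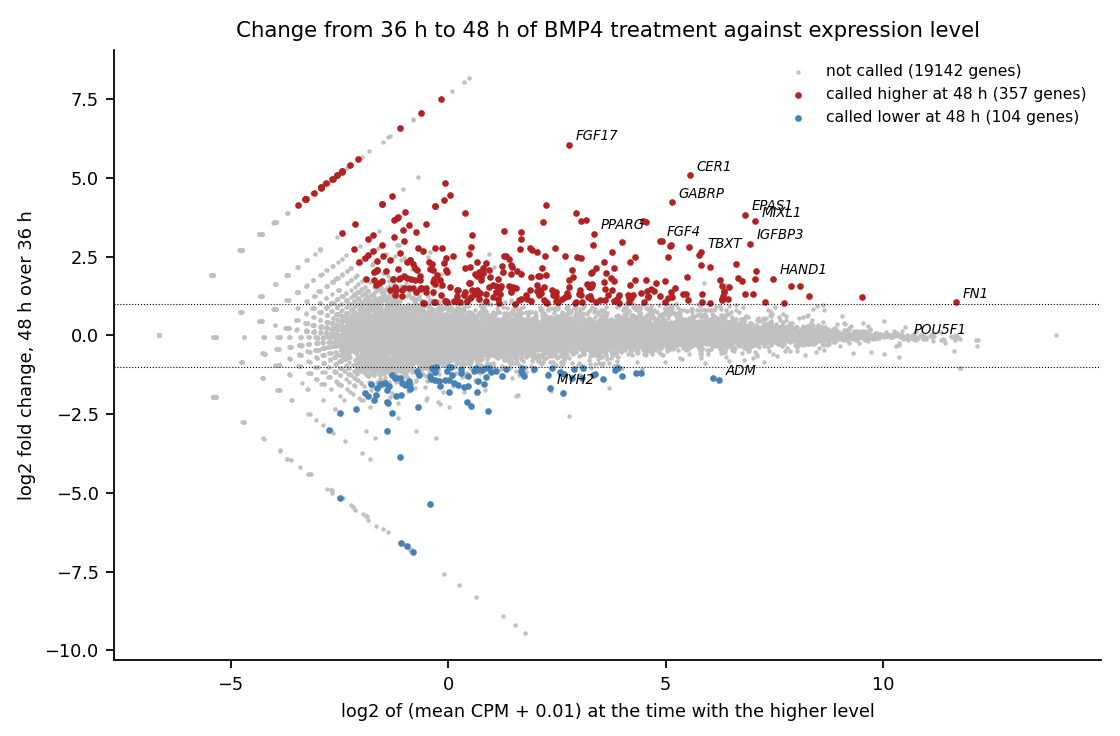
Log2 fold change from 36 h to 48 h with BMP4 for each gene tested (y axis), against the log2 of its mean CPM plus 0.01 at the time with the higher level (x axis). Points above and below the dotted 2-fold lines in colour are the 357 genes called higher and the 104 called lower, and grey points were not called.

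The transcription factors and signals of the primitive streak had the largest share of members called higher among the 35 gene lists examined. Of 20 genes on the list, 17 were called higher against 1.82% of all genes tested, and the median log2 fold change was 2.22 beside 0.0024 for all genes. The summed mean level of the list went from 148.5 CPM to 583.2 CPM. MIXL1, a homeobox gene of the streak, read 10.6, 10.03 and 11.6 CPM at 36 h and 124, 136 and 137 CPM at 48 h (log2 fold change 3.62 ± 0.08 SE, edgeR adjusted p = 5.89e-32). All 3 libraries at 48 h lay more than 10 times above each at 36 h. TBXT, which encodes brachyury, the T-box factor of the streak and of early mesoderm, read 9.1, 8.79 and 8.83 CPM at 36 h and 55.5, 57.7 and 53.8 CPM at 48 h (log2 fold change 2.64 ± 0.12 SE, edgeR adjusted p = 1.07e-21). EOMES, a T-box factor needed for endoderm, read 35.6, 37.98 and 42.05 CPM at 36 h and 131, 133 and 135 CPM at 48 h (log2 fold change 1.79 ± 0.09 SE, edgeR adjusted p = 3.27e-19). The times did not overlap for either gene, and the rises were 6.25-fold for TBXT and 3.45-fold for EOMES. EVX1, a homeobox gene of the posterior streak, read 7.6, 10.3 and 9.64 CPM at 36 h and 23.8, 25.8 and 26.4 CPM at 48 h (log2 fold change 1.46 ± 0.20 SE, edgeR adjusted p = 2.64e-07). Its exons overlap the antisense gene EVX1-AS, and whether reads were counted by strand is not given in the sources used here.

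Genes of the anterior streak and organizer were low at 36 h. CER1, a secreted antagonist of NODAL, BMP and WNT, read 1.76, 1.32 and 1.13 CPM at 36 h and 47.6, 48.2 and 45.8 CPM at 48 h (log2 fold change 5.08 ± 0.21 SE, edgeR adjusted p = 2.03e-27), a 33.6-fold rise. GSC, a homeobox gene of the organizer, read 0.527, 0.256 and 0.363 CPM at 36 h and 2.71, 3.18 and 3.64 CPM at 48 h (log2 fold change 3.04 ± 0.33 SE, edgeR adjusted p = 1.35e-11). LHX1, a LIM homeobox gene active there too, read 0.923, 1.28 and 1.17 CPM at 36 h and 6.78, 6.11 and 6.49 CPM at 48 h (log2 fold change 2.51 ± 0.29 SE, edgeR adjusted p = 2.11e-10). None of these 3 genes showed overlap between the times. MESP1, a factor of early cardiac mesoderm, had 3 counts over the 36 h libraries and 69 over the 48 h libraries, a ratio of 21.9 (95% interval for counting error 7.19 to 108.8). The other 3 members of the list passed the adjusted p but stayed under 2-fold: WNT3 at 0.77 ± 0.09, NODAL at 0.81 ± 0.10 and TBX6 at 0.84 ± 0.24 on the log2 scale.

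Promoters of the streak genes were searched for 5 short motifs in the 250 bases before the RefSeq start (assembly GRCh38.p14), on both strands: AATNNACA for FOXH1, the DNA-binding partner of SMAD2 and SMAD3; ATCAAAG for TCF/LEF, the DNA-binding partners of beta-catenin; AGATAA for GATA factors; GCCNNNGGC for TFAP2 factors; and AGGTGTGA for T-box factors. The called streak genes had a promoter in the table in 10 of 17 cases. The FOXH1 letters were in 4 of the 10, against 5.18% of the promoters of all tested genes and 9.9% of all promoters. The TCF/LEF letters were in 2 of the 10, against 1.32% and 2.28%, the TFAP2 letters in 3 of the 10, against 27% and 19.7%, the GATA letters in 1, against 4.99% and 9.37%, and the T-box letters in 0. The promoters of TBXT and EOMES held none of the 5 motifs. MIXL1 (chr1:226223414-226223663, + strand) and CER1 (chr9:14722734-14722983, - strand) are shown because both genes rose more than 10-fold and their promoters hold FOXH1 matches. Capitals mark motif matches, which do not overlap one another. In MIXL1 these are, in order, a FOXH1 match, a TFAP2 match, a TCF/LEF match and another TFAP2 match; in CER1 both are FOXH1 matches.
MIXL1: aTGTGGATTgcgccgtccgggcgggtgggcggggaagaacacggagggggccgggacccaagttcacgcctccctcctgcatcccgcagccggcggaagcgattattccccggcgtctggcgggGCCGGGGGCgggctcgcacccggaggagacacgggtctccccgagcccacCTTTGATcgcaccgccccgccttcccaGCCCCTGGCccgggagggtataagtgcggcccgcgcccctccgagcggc
CER1: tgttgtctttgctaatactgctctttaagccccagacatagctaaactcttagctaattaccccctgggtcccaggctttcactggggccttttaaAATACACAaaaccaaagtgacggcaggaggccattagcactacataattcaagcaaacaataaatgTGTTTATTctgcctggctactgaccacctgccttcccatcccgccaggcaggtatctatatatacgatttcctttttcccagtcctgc
A match says only that these letters are present, and no binding was measured.

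**Figure D2:**
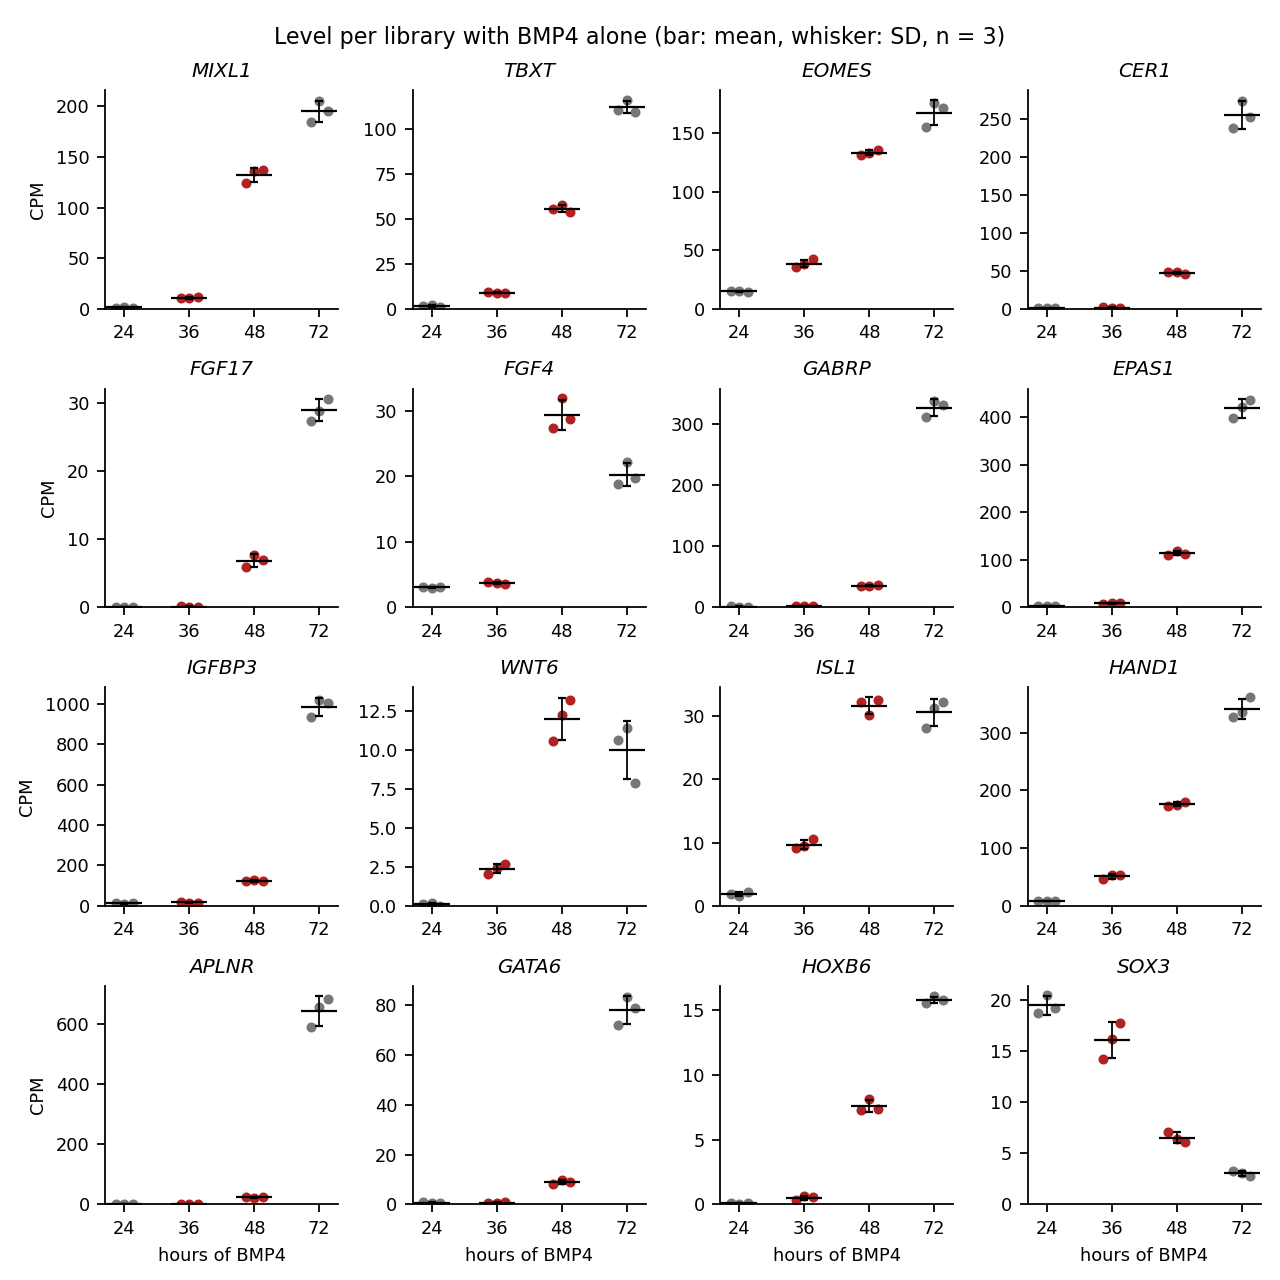
Level in CPM (y axis, from 0) of 16 genes in each BMP4 library at 24, 36, 48 and 72 h (x axis); each point is 1 library, the bar is the mean and the whisker the SD (n = 3). MIXL1 and CER1 separate fully between 36 h and 48 h, and SOX3 falls.

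FGF ligands were also called higher, of which FGF4, FGF8 and FGF17 are counted on the streak list too. FGF4, FGF8 and FGF17 encode ligands expressed in and around the streak, and FGF10 a ligand of later mesenchyme. FGF4 read 3.87, 3.63 and 3.55 CPM at 36 h and 27.4, 31.9 and 28.8 CPM at 48 h (log2 fold change 2.99 ± 0.13 SE, edgeR adjusted p = 1.07e-22). FGF17 read 0.22, 0.0427 and 0.0403 CPM at 36 h and 5.85, 7.74 and 6.9 CPM at 48 h (log2 fold change 6.04 ± 0.75 SE, edgeR adjusted p = 1.48e-17), its 36 h level resting on 7 counts over the 3 libraries, and without replicate 1 at 36 h the log2 fold change was 7.19. FGF8 read 1.14, 0.982 and 1.61 CPM at 36 h and 4.38, 4.68 and 5.25 CPM at 48 h and FGF10 0.396, 0.768 and 0.645 CPM at 36 h and 2.05, 2.77 and 3.43 CPM at 48 h, each without overlap between the times. These were the 4 members called among 23 FGF pathway genes tested, and the list's median of -0.03 was close to that of all genes. At any fold, 4 of the 23 passed the adjusted p higher and 6 lower, against 10.6% and 6.67% of all genes. Of the 6, 3 are described. DUSP6, a phosphatase induced by ERK, read 80.04, 88.5 and 93.7 CPM at 36 h and 49.6, 50.3 and 48.2 CPM at 48 h (log2 -0.82 ± 0.13), and ETV4, an ETS factor downstream of FGF, changed by -0.56 ± 0.08. Both passed the adjusted p (edgeR adjusted p = 4.97e-06 and 6.29e-07). DUSP4, another such phosphatase, changed by -0.74 ± 0.09 with adjusted p = 7.15e-09.

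NODAL pathway genes called higher included ligands, feedback inhibitors and targets. Of 21 members tested, 9 were called higher and 1 lower, with a median log2 fold change of 0.37. The 9 include CER1, MIXL1, EOMES, GSC and LHX1, which the streak list also holds. NODAL itself, the ligand, read 35.4, 37.1 and 39.95 CPM at 36 h and 64.1, 65.3 and 68.7 CPM at 48 h, a 1.76-fold change that passed the adjusted p (edgeR adjusted p = 4.85e-08). LEFTY1 and LEFTY2 encode secreted inhibitors that NODAL signalling induces. LEFTY1 read 3.78, 5.25 and 4.31 CPM at 36 h and 11.7, 12.2 and 12.7 CPM at 48 h (log2 fold change 1.46 ± 0.18 SE, edgeR adjusted p = 1.24e-08) and LEFTY2 read 1.8, 1.2 and 1.13 CPM at 36 h and 7.71, 7.86 and 7.61 CPM at 48 h (log2 fold change 2.49 ± 0.31 SE, edgeR adjusted p = 1.1e-09). GDF3, a ligand that acts with NODAL, read 13.7, 16 and 15.9 CPM at 36 h and 30.2, 32.1 and 32.3 CPM at 48 h (log2 1.05 ± 0.09), and without replicate 1 at 36 h its change of 0.97 missed the 2-fold threshold. The 48 h libraries lay above the 36 h libraries for all 4 of these genes. INHBA, which encodes the subunit of Activin A, was the member called lower, at 1.58, 1.62 and 1.41 CPM at 36 h and 0.581, 0.855 and 0.785 CPM at 48 h (log2 fold change -1.05 ± 0.27 SE, edgeR adjusted p = 0.00335). Without replicate 1 at 48 h it gave -0.91 and was not called. Transducers changed less: FOXH1 gave 0.29 ± 0.06 and SMAD3 0.37 ± 0.07 on the log2 scale. Of the means at 24, 36, 48 and 72 h, those at 48 h were the highest for NODAL and both inhibitors: at 72 h LEFTY1 averaged 3.71 ± 1.33 CPM and NODAL 28.5 ± 0.98 CPM (SD, n = 3).

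WNT ligands and secreted WNT regulators rose in a subset. Of 36 ligands, receptors and secreted factors tested, 7 were called higher and the other 29 were not called (median 0.19). WNT3A and WNT8A among the 7 are also on the streak list. WNT6, a ligand found in amnion and other epithelia, read 2.07, 2.39 and 2.7 CPM at 36 h and 10.5, 12.2 and 13.2 CPM at 48 h (log2 fold change 2.33 ± 0.26 SE, edgeR adjusted p = 5.41e-08). WNT5A, a ligand of the non-canonical branch, read 8.44, 7.25 and 7.98 CPM at 36 h and 16.9, 18.6 and 17.9 CPM at 48 h (log2 fold change 1.17 ± 0.10 SE, edgeR adjusted p = 9.26e-13) and reached 143 ± 12.1 CPM at 72 h (SD, n = 3). WNT8A, a ligand of the streak, read 1.89, 2.9 and 1.69 CPM at 36 h and 4.81, 6.47 and 5.54 CPM at 48 h (log2 1.37 ± 0.20). All 3 were without overlap between the times. WNT3A (log2 1.28 ± 0.32), WNT4 (1.15 ± 0.29) and RSPO3 (1.74 ± 0.61) rose from levels of 2 CPM or less, and WNT2 went from 0 to 9 counts over 3 libraries, at least 2.86-fold higher with a floor of 3 counts per group. DESeq2 gave no adjusted p for WNT2. The WNT4 call was lost without replicate 1 at 48 h (0.99) or replicate 2 at 36 h (0.91). The RSPO3 call was lost without replicate 2 or 3 of either time (1.29 to 1.90, adjusted p from 0.0539 to 0.157). WLS, the carrier protein needed to secrete WNTs, read 212, 227 and 249.9 CPM at 36 h and 390.5, 388 and 416 CPM at 48 h, a 1.73-fold change under the 2-fold threshold with adjusted p = 5.07e-10 in edgeR.

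Among 19 WNT targets and feedback genes, 5 were called higher and the median was 0.32. SP5 and CDX1 among the 5 are also on the streak list. DKK1 and DKK4 encode secreted inhibitors of canonical WNT signalling. DKK1 read 1.1, 0.256 and 0.282 CPM at 36 h and 3.45, 3.38 and 4.22 CPM at 48 h (log2 fold change 2.77 ± 0.41 SE, edgeR adjusted p = 7.17e-08), or 3.73 without replicate 1 at 36 h, and DKK4 went from 0 to 66 counts over the 3 libraries, at least 20.9-fold higher. SP5, a zinc finger gene that canonical WNT signalling induces directly, read 9.98, 9.05 and 10.9 CPM at 36 h and 23.6, 23.6 and 24.6 CPM at 48 h (log2 fold change 1.26 ± 0.13 SE, edgeR adjusted p = 6.98e-10). CDX1 read 1.45, 1.58 and 1.21 CPM at 36 h and 2.83, 3.26 and 4.3 CPM at 48 h (log2 1.29 ± 0.19) and APCDD1, a membrane inhibitor of the pathway, 5.28, 5.04 and 4.72 CPM at 36 h and 9.61, 11.2 and 10.7 CPM at 48 h (log2 1.07 ± 0.14). All 5 separated the times. AXIN2, a widely used reporter of canonical signalling, read 39.2, 39.5 and 36.5 CPM at 36 h and 48.3, 48.5 and 46.1 CPM at 48 h, a change of 0.31 ± 0.07 with adjusted p = 0.000701.

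Among BMP pathway genes 1 of 20 targets (5%) and 2 of 26 ligands, receptors and antagonists (7.69%) were called higher, against 1.82% of all genes tested. BMPER is in both counts. At any fold, 8 targets passed the adjusted p higher and 2 lower. Of the ligands, receptors and antagonists 9 passed higher and 4 lower. Over all genes these shares were 10.6% and 6.67%. Of 20 BMP targets the 1 called was BMPER, which encodes an extracellular BMP-binding protein and read 2.07, 1.45 and 2.26 CPM at 36 h and 6.01, 4.4 and 5.29 CPM at 48 h (log2 fold change 1.44 ± 0.21 SE, edgeR adjusted p = 8.39e-07). The median of the list was 0.16. The ID genes encode dominant-negative partners of helix-loop-helix factors and are direct SMAD1/5 targets. ID1 changed by -0.12 ± 0.07 and ID2 by 0.15 ± 0.07, and ID3 read 237, 266 and 276 CPM at 36 h and 175, 179 and 194 CPM at 48 h (log2 -0.51 ± 0.07, edgeR adjusted p = 3.69e-07). MSX2, another direct target, read 57.3, 64.4 and 66.3 CPM at 36 h and 88.9, 90.8 and 95.9 CPM at 48 h (log2 0.55 ± 0.09). Among 26 ligands, receptors and antagonists, BMPER and GDF6 were called higher, and GDF6, a BMP-family ligand, read 0.967, 0.854 and 1.21 CPM at 36 h and 4.07, 4.32 and 4.96 CPM at 48 h (log2 fold change 2.13 ± 0.26 SE, edgeR adjusted p = 6.56e-09). Endogenous BMP4 transcript read 76.6, 86.8 and 88.9 CPM at 36 h and 86.05, 89.3 and 92.3 CPM at 48 h, a change of 0.09 ± 0.05 that did not pass (adjusted p = 0.321). The antagonist GREM1 lay lower at 48 h (-0.95 ± 0.20, adjusted p = 0.000344), just under the 2-fold threshold.

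Amnion genes rose in part. Of 24 tested, 8 were called higher, 1 lower, and 15 were not called, with a median of 0.53. GABRP, a GABA receptor subunit marking amnion in embryos and in culture, read 1.93, 2.09 and 1.61 CPM at 36 h and 34.7, 35.01 and 36.1 CPM at 48 h (log2 fold change 4.23 ± 0.17 SE, edgeR adjusted p = 2.06e-27). Its 48 h libraries lay more than 10 times above its 36 h libraries, and at 72 h it averaged 327 ± 13.8 CPM (SD, n = 3). A gene on the other strand, AC008514.1, overlaps its exons. IGFBP3, a secreted binding protein of insulin-like growth factors, read 19.5, 15.1 and 14.5 CPM at 36 h and 120.2, 126 and 122 CPM at 48 h (log2 fold change 2.91 ± 0.09 SE, edgeR adjusted p = 1.75e-26) and 985 ± 45.3 CPM at 72 h. EPAS1, which encodes the oxygen-sensitive factor HIF2A, read 6.5, 8.36 and 9.07 CPM at 36 h and 110.1, 118 and 112 CPM at 48 h (log2 fold change 3.82 ± 0.10 SE, edgeR adjusted p = 9.8e-31). HAND1, a helix-loop-helix factor of amnion and extraembryonic mesoderm, read 46.1, 52.6 and 53.8 CPM at 36 h and 174, 174 and 180.4 CPM at 48 h (log2 fold change 1.79 ± 0.07 SE, edgeR adjusted p = 1.1e-22). ISL1, a LIM homeobox gene active in amnion, read 9.14, 9.39 and 10.5 CPM at 36 h and 32.3, 30.2 and 32.6 CPM at 48 h (log2 fold change 1.71 ± 0.12 SE, edgeR adjusted p = 3.08e-15). The 2 times were apart by at least 2-fold in every library pair for these 5 genes. VTCN1, an immune checkpoint ligand of amnion, read 0.396, 0.0853 and 0.484 CPM at 36 h and 3.6, 2.85 and 3.02 CPM at 48 h (log2 fold change 3.27 ± 0.40 SE, edgeR adjusted p = 3.57e-10). TFAP2B, an AP-2 factor, read 0.176, 0.256 and 0.161 CPM at 36 h and 1.59, 1.22 and 1.45 CPM at 48 h (log2 fold change 2.82 ± 0.61 SE, edgeR adjusted p = 0.000292). Neither gene overlapped between the times.

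The factors usually induced first by BMP moved less over this interval. TFAP2A read 71.7, 76.05 and 72.3 CPM at 36 h and 91.5, 89.4 and 92.7 CPM at 48 h (log2 0.31 ± 0.10) and GATA3 53.5, 59.6 and 60.5 CPM at 36 h and 78.9, 79.96 and 82.7 CPM at 48 h (log2 0.48 ± 0.11). TFAP2A already averaged 62.4 ± 2.53 CPM and GATA3 52.97 ± 2.66 CPM at 24 h (SD, n = 3). TFAP2C (0.20 ± 0.07, edgeR adjusted p = 0.0502) and GATA2 (0.27 ± 0.13, adjusted p = 0.179) did not pass. KRT7, a keratin of simple epithelia, read 10.2, 9.69 and 8.39 CPM at 36 h and 15.3, 16.9 and 16.4 CPM at 48 h (log2 0.79 ± 0.16), and TBX3 changed by 0.96 ± 0.08, both under 2-fold. GCNT4, a glycosyltransferase, was the list member called lower, at 7.87, 8.71 and 8.99 CPM at 36 h and 3.53, 4.8 and 4.26 CPM at 48 h (log2 fold change -1.03 ± 0.17 SE, edgeR adjusted p = 1.48e-05). It was not called without replicate 1 at 48 h (-0.92) or replicate 3 at 36 h (-0.98).

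All 8 called amnion genes had a promoter in the table. Those of GABRP, IGFBP3 and EPAS1 held none of the motifs searched. The TFAP2 letters were in 3 of the 8, against 27% of the promoters of tested genes, the GATA letters in 1 against 4.99%, the TCF/LEF letters in 1 against 1.32%, and the FOXH1 and T-box letters in 0 of the 8. WNT6 (chr2:218859555-218859804, + strand, 1 TFAP2 match) and ISL1 (chr5:51383198-51383447, + strand, 1 GATA match) are shown as a ligand and a factor of this group that hold a match near the start.
WNT6: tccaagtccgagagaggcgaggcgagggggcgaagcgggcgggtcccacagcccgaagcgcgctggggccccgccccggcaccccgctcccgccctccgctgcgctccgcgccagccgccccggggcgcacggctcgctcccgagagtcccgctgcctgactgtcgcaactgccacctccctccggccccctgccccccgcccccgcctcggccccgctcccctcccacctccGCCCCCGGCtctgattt
ISL1: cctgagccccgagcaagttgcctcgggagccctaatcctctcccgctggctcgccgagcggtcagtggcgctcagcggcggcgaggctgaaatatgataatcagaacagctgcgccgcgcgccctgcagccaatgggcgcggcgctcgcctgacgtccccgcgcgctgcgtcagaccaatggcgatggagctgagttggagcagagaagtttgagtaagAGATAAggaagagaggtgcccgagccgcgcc
Over all 233 genes called higher with a promoter, TFAP2 letters were in 28.3%, GATA letters in 10.3%, FOXH1 letters in 9.44% and TCF/LEF letters in 3%. Over the 63 called lower with a promoter, these shares were 14.3%, 9.52%, 12.7% and 1.59%. Among all tested genes FOXH1 letters were in 5.18%. The larger GATA and FOXH1 shares were thus not particular to the rising genes.

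Mesoderm genes rose in part, with receptors and regulators of early mesoderm leading. Of 25 nascent and paraxial mesoderm genes, 8 were called higher, with a median of 0.63 (0.68 with members at 0 counts at one time set to their bound). APLNR, a receptor marking early mesoderm, read 2.15, 1.58 and 2.1 CPM at 36 h and 25.2, 21.3 and 23.3 CPM at 48 h (log2 fold change 3.58 ± 0.16 SE, edgeR adjusted p = 8.43e-25). PDGFRA, the receptor of PDGF on mesoderm, read 2.07, 2.82 and 3.59 CPM at 36 h and 7.05, 5.86 and 7.36 CPM at 48 h (log2 fold change 1.25 ± 0.20 SE, edgeR adjusted p = 3.9e-06). FOXC1, a forkhead factor of mesoderm, read 0.264, 0.256 and 0.726 CPM at 36 h and 2.33, 2.48 and 2.48 CPM at 48 h (log2 2.51 ± 0.36, or 3.20 without replicate 3 at 36 h). DLL3, a Notch ligand of the presomitic mesoderm, read 0.308, 0.683 and 0.605 CPM at 36 h and 1.51, 0.896 and 1.03 CPM at 48 h (log2 1.10 ± 0.34) and lost its call without replicate 1 at 48 h (0.83) or at 36 h (0.82). APLNR stood at 643 ± 48.8 CPM and PDGFRA at 76.1 ± 9.24 CPM at 72 h (SD, n = 3). Of 27 lateral plate, cardiac and extraembryonic mesoderm genes, 9 were called higher, with a median of 0.96 (0.88 with bounds). GATA6, a zinc finger factor of cardiac and extraembryonic lineages, read 0.703, 0.598 and 0.806 CPM at 36 h and 8.26, 9.73 and 9.13 CPM at 48 h (log2 fold change 3.67 ± 0.31 SE, edgeR adjusted p = 1.68e-16). GATA4, its close relative, read 0.44, 0.341 and 0.564 CPM at 36 h and 1.78, 2.12 and 1.86 CPM at 48 h (log2 fold change 2.08 ± 0.36 SE, edgeR adjusted p = 2.99e-06). LUM, which encodes the matrix proteoglycan lumican, went from 0 to 48 counts over 3 libraries, at least 15.2-fold higher. KDR, a VEGF receptor of mesodermal progenitors, read 223, 234 and 252 CPM at 36 h and 316, 331 and 340.5 CPM at 48 h, a change of 0.48 ± 0.07 under the 2-fold threshold. Exons of GATA6 overlap the antisense gene GATA6-AS1. SNAI2, a repressor of epithelial genes in migrating mesoderm, read 0.659, 0.213 and 0.323 CPM at 36 h and 1.55, 1.47 and 1.82 CPM at 48 h (log2 fold change 2.01 ± 0.27 SE, edgeR adjusted p = 3.51e-08).

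Definitive endoderm genes gave 6 calls among 22 tested, all of them higher, with a median of 0.28. CER1, GATA6 and GATA4 were among them. SOX17, the HMG-box factor that specifies endoderm and germ cells, read 0.879, 0.768 and 0.806 CPM at 36 h and 5.08, 4.56 and 4.46 CPM at 48 h (log2 fold change 2.52 ± 0.29 SE, edgeR adjusted p = 1.93e-10). PRDM1, a zinc finger repressor, read 0.659, 0.726 and 0.685 CPM at 36 h and 2.25, 2.97 and 2.85 CPM at 48 h (log2 1.95 ± 0.27). FOXA2, the forkhead factor of endoderm, had 2 counts over the 36 h libraries and 31 over the 48 h libraries, a ratio of 14.8 (95% interval for counting error 3.75 to 127.3). Other endoderm genes did not pass: CXCR4, a chemokine receptor, gave 0.30 ± 0.46 (edgeR adjusted p = 0.73), and HHEX, a homeobox gene, -0.28 ± 0.28 (adjusted p = 0.553). The 5 endoderm markers together lay between 8.92 and 9.92 CPM at 48 h, against 161.9 to 175.6 CPM in the libraries with Activin and BMP4 at that time.

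Several genes of the HOXB cluster and all 3 MEIS genes rose, while HOXB4 was not called. Of 42 HOX and CDX genes, 26 were tested, 9 were called higher and 1 lower, with a median of 1.34 (1.39 with bounds, leaving out 5 genes with 3 counts or fewer at both times). HOXB6 read 0.308, 0.64 and 0.564 CPM at 36 h and 7.33, 8.14 and 7.36 CPM at 48 h (log2 fold change 3.90 ± 0.27 SE, edgeR adjusted p = 1.1e-12). HOXB2 read 0.132, 0.299 and 0.363 CPM at 36 h and 5.31, 4.6 and 4.38 CPM at 48 h (log2 fold change 4.13 ± 0.35 SE, edgeR adjusted p = 3.56e-13). HOXB3 went from 2 to 70 counts over 3 libraries, a ratio of 33.3 (95% interval for counting error 8.89 to 280.6), and HOXB8 from 0 to 13. Exons of HOXB3, HOXB4 and HOXB6 overlap on one strand and antisense genes run opposite, so the share of each gene is uncertain. HOXD1 was the member called lower, at 0.879, 1.66 and 1.49 CPM at 36 h and 0.155, 0.489 and 0.289 CPM at 48 h (log2 fold change -2.11 ± 0.48 SE, edgeR adjusted p = 0.00086). CDX2, a caudal homeobox gene that BMP induces early, read 14.7, 20.1 and 18.9 CPM at 36 h and 13.6, 13.5 and 14.8 CPM at 48 h, a change of -0.36 ± 0.15 that did not pass (edgeR adjusted p = 0.0883). MEIS proteins are homeobox cofactors of HOX proteins, and all 3 of their genes were called higher. MEIS1 read 1.85, 2.01 and 2.22 CPM at 36 h and 16.4, 16.1 and 15.2 CPM at 48 h (log2 fold change 2.97 ± 0.19 SE, edgeR adjusted p = 1.19e-16). MEIS2 read 0.747, 0.896 and 0.726 CPM at 36 h and 4.81, 6.39 and 5.12 CPM at 48 h (log2 2.78 ± 0.27) and MEIS3 7.78, 7.68 and 8.02 CPM at 36 h and 19.8, 18.2 and 19.1 CPM at 48 h (log2 1.28 ± 0.08). In the retinoic acid list 3 of 18 genes were called higher. ALDH1A2, the enzyme that makes retinoic acid in the embryo, read 1.27, 1.54 and 1.69 CPM at 36 h and 8.1, 8.02 and 8.89 CPM at 48 h (log2 fold change 2.47 ± 0.26 SE, edgeR adjusted p = 5.81e-10), with exons that overlap AQP9 on the other strand. RARB, a retinoic acid receptor, read 0.615, 0.341 and 0.323 CPM at 36 h and 0.814, 1.59 and 1.03 CPM at 48 h (log2 1.42 ± 0.36), and RXRG went from 2 to 16 counts, a ratio of 7.62 (95% interval for counting error 1.79 to 68.3). The RXRG call held in 1 of the 6 fits that left out 1 library, the others giving adjusted p from 0.0594 to 0.195.

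TP63, PPARG, SPNS2 and ABCG2 were also among the genes called higher. TP63, the master regulator of stratified epithelium, read 0.615, 0.512 and 0.847 CPM at 36 h and 7.99, 8.92 and 8.02 CPM at 48 h (log2 fold change 3.64 ± 0.35 SE, edgeR adjusted p = 1.92e-11). It was the 1 gene called among 14 surface ectoderm genes, of which 7 higher and 1 lower passed the adjusted p at any fold, against 10.6% and 6.67% of all genes. The sum of the 5 surface ectoderm markers lay higher at 48 h too, with KRT5 and KRT14 at 0 counts, and its part in these changes was not tested. The same gene, VGLL1 (1.55 ± 0.34) and LRP2 (1.28 ± 0.16) were the 3 called of 17 trophoblast genes tested out of 29 listed, beside trophoblast markers that stayed under 1 CPM in sum. PPARG, a nuclear receptor of fat and placental cells, read 1.1, 0.982 and 1.21 CPM at 36 h and 10.6, 10.1 and 10.1 CPM at 48 h (log2 fold change 3.22 ± 0.26 SE, edgeR adjusted p = 2.11e-13). SPNS2, the exporter of sphingosine-1-phosphate, read 4.22, 5.29 and 4.84 CPM at 36 h and 32.1, 35.95 and 36.2 CPM at 48 h (log2 fold change 2.86 ± 0.14 SE, edgeR adjusted p = 2.75e-20), and its exons overlap MYBBP1A on the other strand. ABCG2, an efflux pump of stem cells and placenta, read 13.3, 14.8 and 15.5 CPM at 36 h and 64.7, 64.7 and 64.8 CPM at 48 h (log2 fold change 2.15 ± 0.12 SE, edgeR adjusted p = 1.51e-18). CLIC5, a chloride channel protein of microvilli, read 9.14, 9.43 and 8.63 CPM at 36 h and 24.3, 22.7 and 24.2 CPM at 48 h (log2 1.39 ± 0.16). With GABRP these made 4 calls among 23 transporters and channels. IGF1 (2.30 ± 0.54) and IGFBP7 (1.07 ± 0.23) joined IGFBP3 as called members among 14 genes of the insulin-like growth factor family, the IGFBP7 call being lost without replicate 3 at 36 h (0.97). FN1, which encodes the matrix protein fibronectin, read 1496, 1544 and 1635 CPM at 36 h and 3010.0, 3275 and 3422 CPM at 48 h (log2 fold change 1.05 ± 0.11 SE, edgeR adjusted p = 2.26e-09). PPIAP46, a processed pseudogene of the PPIA family, was among the 12 steepest rises at 1.45, 1.88 and 2.1 CPM at 36 h and 22.2, 21.5 and 23.5 CPM at 48 h (log2 3.62 ± 0.23). It lies antisense to an exon of CYP11A1 and has near-identical copies, so its counts are uncertain.

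**Figure D3:**
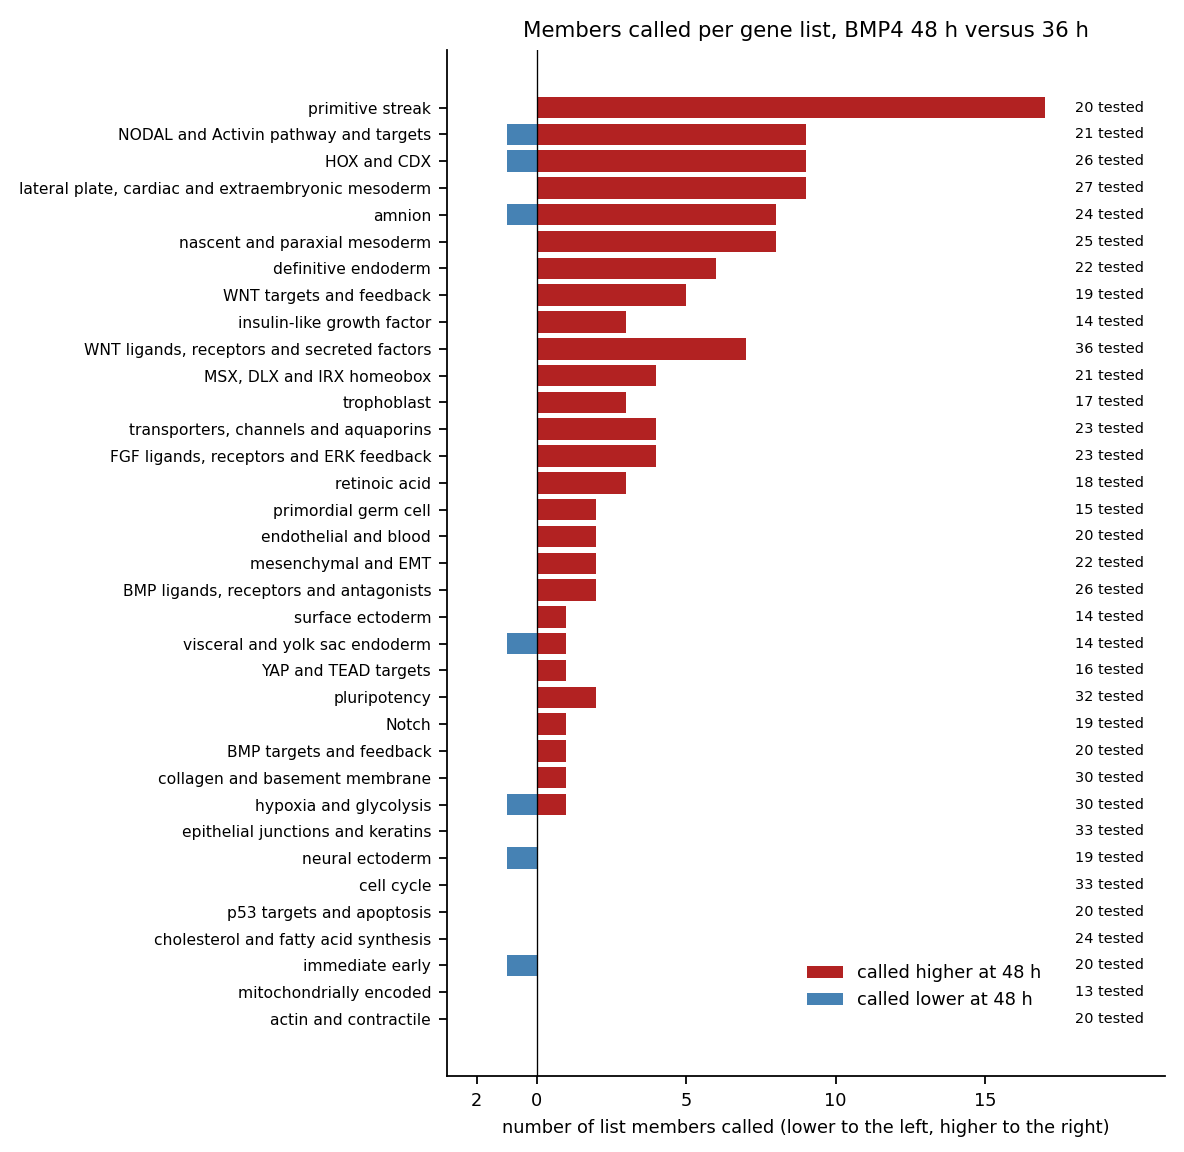
Number of members of each of 35 gene lists called from 36 h to 48 h with BMP4 (x axis, higher to the right of 0 and lower to the left), with the number tested at the right; lists are ordered by the share called higher. The primitive streak list has the longest bar, 17 of 20 members, beside 1.82% of all genes tested.

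The core pluripotency factors POU5F1, NANOG and SOX2 did not pass the test. POU5F1 read 1436, 1486 and 1541 CPM at 36 h and 1375, 1366 and 1437 CPM at 48 h (log2 -0.10 ± 0.05), NANOG 121, 132 and 129 CPM at 36 h and 136, 129 and 134 CPM at 48 h (0.06 ± 0.04) and SOX2 273, 238 and 232 CPM at 36 h and 236, 213 and 219 CPM at 48 h (-0.16 ± 0.08). The times overlapped for all 3. Of 32 pluripotency genes 2 were called, LEFTY1 and GDF3, both higher, a count to be read against the 2.35% of all genes called. At any fold, 7 of the 32 passed the adjusted p higher and 9 lower, against 10.6% and 6.67% of all genes. The median of the list was -0.07, and its summed mean level went from 13770 CPM to 12040 CPM. CDH1, the epithelial cadherin, read 655, 652 and 669 CPM at 36 h and 792, 804 and 819 CPM at 48 h (0.29 ± 0.04), and VIM, an intermediate filament of mesenchyme, 122, 113 and 112 CPM at 36 h and 91.8, 80.8 and 88.7 CPM at 48 h (-0.41 ± 0.09). The cadherin lay higher and the filament lower at 48 h, each under 2-fold (edgeR adjusted p = 4.81e-07 and 0.00144). DSP, the desmosomal protein desmoplakin, came closest to the threshold among 33 epithelial genes, at 205, 192 and 207 CPM at 36 h and 363, 411 and 407 CPM at 48 h (0.97 ± 0.09). None of the 33 was called with edgeR or DESeq2, while 14 higher and 3 lower had an unadjusted p under 0.05 in edgeR. None of 33 cell cycle genes was called by either tool, with 9 higher and 8 lower at an unadjusted p under 0.05. MKI67, a marker of cycling cells, gave 0.25 ± 0.09. Counts of 0 by both tools were also found for 20 p53 targets (4 higher and 4 lower unadjusted), 24 genes of cholesterol and fatty acid synthesis (1 and 3), 13 mitochondrially encoded genes (0 and 0) and 20 actin and contractile genes (0 and 9). Of all 19603 genes, 5514 had an unadjusted p under 0.05 and 461 were called, so a count of 0 calls in lists of this size is near the background. Smaller changes were present in some lists. At any fold, 12 of the 33 epithelial genes passed the adjusted p higher and 1 lower. Of the 20 actin and contractile genes, 0 passed higher and 8 lower. Over all genes these shares were 10.6% and 6.67%. The counts were 6 and 6 for cell cycle, 4 and 2 for p53 targets, 0 and 2 for cholesterol and fatty acid synthesis, and 0 and 0 for mitochondrially encoded genes.

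Of 671 tested members of the 35 lists, 7 were among the 104 lower genes and 77 among the higher genes. Over all genes tested, 0.531% were called lower and 1.82% higher. Of the 104, 19 averaged 5 CPM or more at 36 h. SOX3, a SOXB1 factor of neural progenitors, read 14.2, 16.1 and 17.7 CPM at 36 h and 7.09, 6.35 and 6.08 CPM at 48 h (log2 fold change -1.30 ± 0.15 SE, edgeR adjusted p = 5.88e-09). It was the 1 member called among 19 neural ectoderm genes, whose median log2 fold change was 0.06. At any fold, 4 of the 19 passed the adjusted p higher and 2 lower, against 10.6% and 6.67% of all genes. PAX6, a neural factor, read 2.42, 1.2 and 0.847 CPM at 36 h and 0.969, 0.855 and 0.868 CPM at 48 h, a change that did not pass (edgeR adjusted p = 0.0872). Its replicate 1 at 36 h lay above the other 5 libraries. ADM, a peptide hormone that hypoxia induces, read 70.9, 74.7 and 79.1 CPM at 36 h and 27.8, 25.8 and 30.9 CPM at 48 h (log2 fold change -1.41 ± 0.12 SE, edgeR adjusted p = 1.15e-12), continuing a decline from 121 ± 4.54 CPM at 24 h to 11.9 ± 0.541 CPM at 72 h. IQSEC2, an exchange factor of neurons, read 60.7, 71.2 and 71.2 CPM at 36 h and 24.7, 27.9 and 26.8 CPM at 48 h (log2 fold change -1.36 ± 0.07 SE, edgeR adjusted p = 2.94e-19), with 123 ± 6.64 CPM at 24 h and 11.96 ± 0.788 CPM at 72 h. PDE4B, a cyclic AMP phosphodiesterase, read 19.1, 21.7 and 23.99 CPM at 36 h and 8.95, 8.75 and 10.3 CPM at 48 h (log2 -1.21 ± 0.11). SOX3, ADM, IQSEC2 and PDE4B each averaged more at 24 h than at 36 h and less at 72 h than at 48 h. A further fall was not the rule: the mean at 72 h was below that at 48 h for 43 of the 104.

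Other genes called lower were EGR1, LNCPRESS1, MT2A, VGF, MYH2, PCDH9, H4C14 and PALM2AKAP2. EGR1, an immediate early factor, read 16.1, 15.8 and 12.7 CPM at 36 h and 6.86, 7.41 and 7.52 CPM at 48 h (log2 -1.03 ± 0.18) and lost its call without replicate 1 (-0.98) or 2 (-0.996) at 36 h. LNCPRESS1, a long non-coding RNA of pluripotent cells, read 12.5, 11.3 and 11.8 CPM at 36 h and 4.42, 4.48 and 4.63 CPM at 48 h (log2 fold change -1.39 ± 0.11 SE, edgeR adjusted p = 4.76e-13). MT2A, a metallothionein, changed by -1.37 ± 0.12, and VGF, a neuropeptide precursor, by -1.37 ± 0.16. MYH2, a skeletal muscle myosin heavy chain, read 4.92, 4.65 and 5.64 CPM at 36 h and 1.36, 1.47 and 1.94 CPM at 48 h (log2 fold change -1.68 ± 0.24 SE, edgeR adjusted p = 3.62e-07). PCDH9, a protocadherin, changed by -1.23 ± 0.17. The remaining named falls were less firm. H4C14, a histone H4 gene overlapped by another histone gene, read 9.41, 8.88 and 11.8 CPM at 36 h and 1.78, 5.9 and 4.88 CPM at 48 h (log2 -1.27 ± 0.45) and lost its call in 5 of the 6 fits that left out 1 library (-0.91 to -1.39, adjusted p from 0.0601 to 0.228) and with DESeq2 (adjusted p = 0.063). PALM2AKAP2, a readthrough gene overlapping PALM2 and AKAP2, read 18.9, 23.4 and 17.3 CPM at 36 h and 5.04, 9.04 and 11.99 CPM at 48 h (log2 -1.20 ± 0.39) and lost it without replicate 1 (-0.93) or 2 (-1.24) at 48 h or replicate 2 at 36 h (-1.08).

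The same interval was compared with that under Activin and BMP4, which shares no library with it. There 666 genes were called (3.4%), 506 higher (2.58%) and 160 lower (0.816%). Of the 357 genes called higher with BMP4, 126 were called higher there too, which is 35.3% of this list and 24.9% of the other. Of the 104 lower, 19 were lower in both, 18.3% and 11.9%. The difference of the changes was then tested gene by gene. It was called for 428 genes (2.18%), 211 with a higher log2 change under BMP4 (1.08%) and 217 with a higher one under Activin and BMP4 (1.11%).

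Streak genes leaned toward BMP4, with 14 of 20 having a change called greater under BMP4 and 1 called smaller. Their median change was 2.22 with BMP4 and 0.61 with Activin and BMP4. TBXT rose 6.25-fold with BMP4 and stood at 113 ± 2.59 CPM at 36 h and 112 ± 0.626 CPM at 48 h (SD, n = 3) with Activin and BMP4 (difference in log2 fold change 2.66 ± 0.15 SE). MIXL1 was at 401 ± 5.25 CPM and 663 ± 9.59 CPM there (difference 2.90 ± 0.10). FGF4 was at 99.5 ± 2.003 CPM and 82.2 ± 5.22 CPM (difference 3.27 ± 0.16). All 3 were thus already well above their BMP4 level at 36 h in that condition. LHX1 was the gene called smaller (difference -1.04 ± 0.32), from 13.5 ± 1.46 CPM to 158 ± 8.47 CPM, but this call was lost in 7 of 12 fits that left out 1 library (-0.95 to -1.04, adjusted p from 0.0531 to 0.166). Amnion genes differed too, with 9 of 24 called greater under BMP4 and 1 called smaller. EPAS1 was at 2.61 ± 0.33 CPM and 1.47 ± 0.0933 CPM with Activin and BMP4 (difference 4.65 ± 0.24). Of genes outside the amnion list, PPARG was at 0.195 ± 0.169 CPM and 0.119 ± 0.0442 CPM (difference 3.93 ± 0.73) and SPNS2 at 0.676 ± 0.0507 CPM and 0.598 ± 0.186 CPM (difference 3.02 ± 0.34). These 3 stayed low there while they rose with BMP4. HAND1 rose in both, and its difference did not pass (0.09 ± 0.14, edgeR adjusted p = 0.8).

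Endoderm genes leaned the opposite way, with 7 of 22 called smaller under BMP4 and 2 greater. Their median change was 0.28 with BMP4 and 2.20 with Activin and BMP4, where 13 of 22 were called higher. LGR5, a receptor of R-spondins, was at 0.581 ± 0.183 CPM and 0.432 ± 0.24 CPM with BMP4 and at 2.1 ± 0.286 CPM and 16.7 ± 0.364 CPM with Activin and BMP4 (difference -3.41 ± 0.67). CD177, a surface glycoprotein used to sort endoderm progenitors, gave -3.73 ± 0.43, CLVS2, a lipid-binding protein, -3.36 ± 0.37, and MAMLD1 -3.35 ± 0.56. LIX1 gave -2.66 ± 0.26 and TMOD1, a cap of actin filaments, -2.63 ± 0.33. None of the 6 was called with BMP4 in this interval. Each was called higher with BMP4 between 24 h and 72 h, LGR5 reaching 27.1 ± 4.85 CPM and LIX1 37.6 ± 2.61 CPM. SOX17 rose in both conditions, and its difference of -0.09 ± 0.31 did not pass (adjusted p = 0.932). The part of Activin and that of the BMP4 dose in these differences cannot be told apart.

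**Figure D4:**
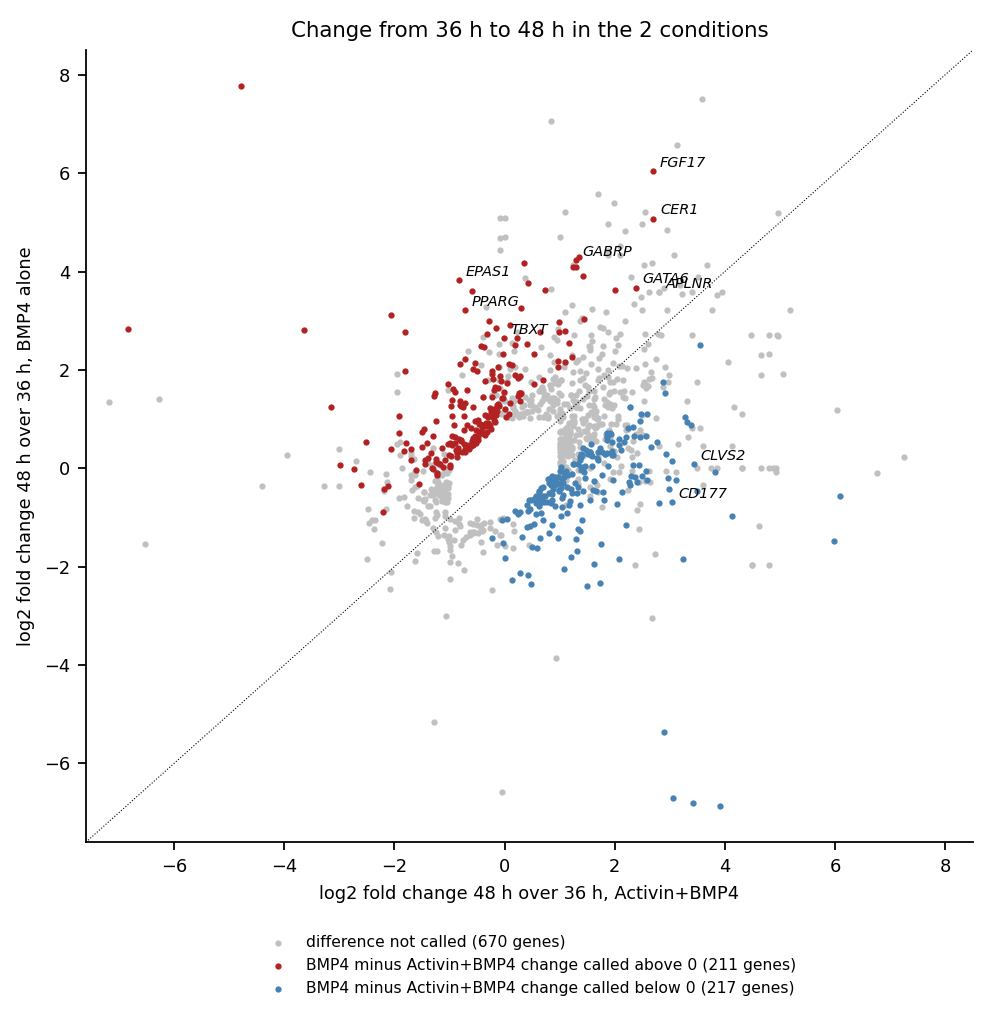
Log2 fold change from 36 h to 48 h with Activin and BMP4 (x axis) against that with BMP4 (y axis) for genes called in either condition or in the test of the difference; colours mark genes whose difference was called, and the dotted line marks equal change. TBXT and EPAS1 lie far above the line, CD177 and CLVS2 below it.

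The interval sits inside a longer course, which was examined with libraries of neither time. Between 24 h and 72 h of BMP4, 2489 genes were called (12.7%), 1524 higher (7.77%) and 965 lower (4.92%). Of the 357 genes that rose from 36 h to 48 h, 330 were called higher over this span, 92.4% of this list and 21.7% of the other, 1 was called lower and 26 were not called. Of the 104 that fell, 63 were called lower, 60.6% and 6.53%, and 4 were called higher. The mean at 72 h was above that at 48 h for 272 of the 357. CER1 went from 47.2 ± 1.26 CPM at 48 h to 255 ± 18.1 CPM at 72 h, and LHX1 from 6.46 ± 0.339 CPM to 100.2 ± 10.2 CPM (SD, n = 3). Others had lower means at 72 h. FGF8 averaged 4.77 ± 0.441 CPM at 48 h and 1.8 ± 0.243 CPM at 72 h, and CLIC5 23.8 ± 0.905 CPM and 11.04 ± 0.863 CPM. TP63 stood level, at 8.31 ± 0.528 CPM and 8.47 ± 0.751 CPM.

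**Figure D5:**
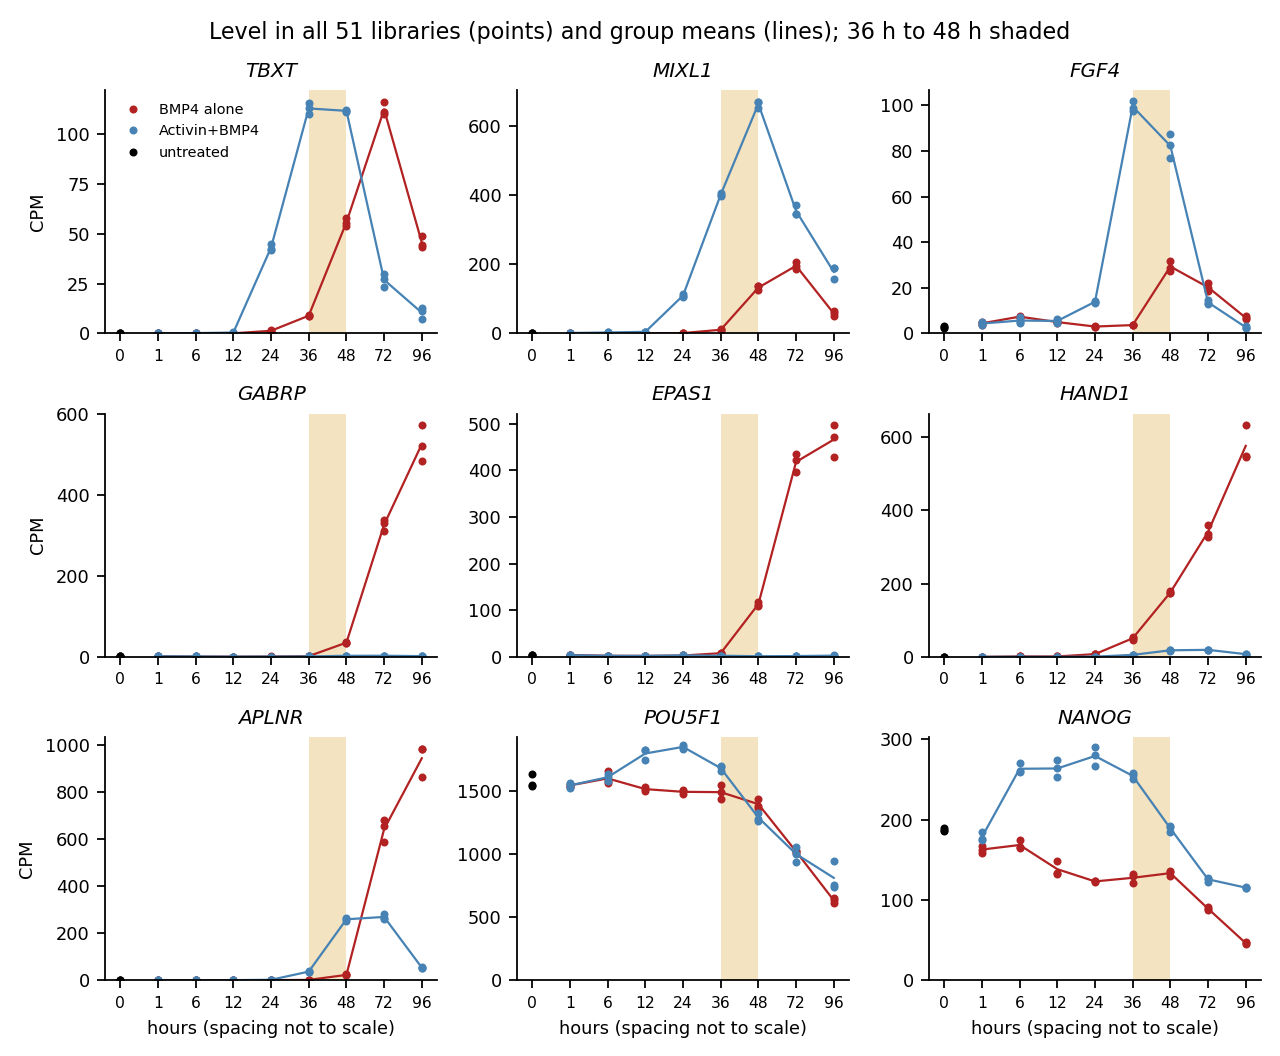
Level in CPM (y axis, from 0) of 9 genes in all 51 libraries from untreated cells to 96 h (x axis, time points not spaced to scale), by treatment; points are libraries, lines join group means and the interval from 36 h to 48 h is shaded. With BMP4, TBXT, MIXL1, GABRP and EPAS1 climb across the shaded interval while POU5F1 and NANOG change by less than 2-fold.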

How the data were processed

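Total RNA of H1 cells was sequenced in 51 libraries, 6 of them described here, after a KAPA RNA HyperPrep kit from 400 ng, per the labels. The authors deposited 1 table of whole-number counts per gene for 58051 gene rows, of which 41229 had a count and 56948 a symbol. Tools named in the submitters' processing notes, with no role, are STAR 2.5.2a, RSEM 1.3.0 and cutadapt 1.5, and the build is GRCh38. Whether the deposited counts are read counts or rounded RSEM estimates, the strand setting and the annotation release are not given in the sources used here, and they bear on overlapping genes, pseudogenes and low counts. All columns were matched to samples.

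Counts were analysed with edgeR 4.0.16 (limma 3.58.1) in R 4.3.3. filterByExpr (minimum count 10, minimum total 15) kept 19603 genes and 99.9% of counts. Libraries were scaled by TMM factors (0.966 to 1.03), and 1 quasi-likelihood model with a mean per group was fitted to all 51 libraries (22788905 to 30354633 counts each). Contrasts were 48 h versus 36 h with BMP4, the difference of this change from that with Activin and BMP4, and 72 h versus 24 h. The change with Activin and BMP4 by itself was added later. A call needs a Benjamini-Hochberg adjusted p under 0.05 over all genes together with a 2-fold change or more. CPM values use the TMM-scaled totals. A group at 0 counts was set to a floor of 3 counts over its 3 libraries for a lower bound, and ratios over 1 to 3 counts carry 95% intervals, which like the floors cover counting error only. Exon overlaps come from GENCODE 29, in which 19477 of the genes tested were found, and promoters from a RefSeq table (GRCh38.p14). The model was tested on simulated data in which only genes with ample counts were changed, so this test does not bear on calls at low counts.

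The rule for named genes took the 12 highest and 12 lowest changes with at least 5 CPM, no overlap between times and no clone-type symbol, the 6 highest and 6 lowest differences between treatments, up to 4 called members of each of 35 lists (736 genes, 671 tested), a fate panel, and members of a described list. Some genes the rule took are not reported here. The libraries compared and the lists were chosen with earlier results of these data known. Lists share genes, with 18 streak and 18 amnion genes also on another list, so their counts are not independent. Alternatives were RLE scaling, no filter, a stricter filter, fits of the compared groups only, a replicate block, DESeq2 1.42.0, no fold threshold, and leaving out each library.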

Additional observations from a re-analysis of the deposited data

Results flagged for a closer look

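The change from 36 h to 48 h differed between BMP4 and Activin with BMP4, in the test of the difference itself, for 58 of the 135 genes named, against 2.18% of all genes. Some of the 135 were named for their difference or for being called, so this share is no estimate for other genes. Values below are differences in log2 fold change, BMP4 minus Activin with BMP4, and the 2 treatments differ in BMP4 dose too. For 41 genes the change was greater with BMP4. Of streak and NODAL pathway genes, the differences were FGF17 3.35, FGF4 3.27, LEFTY2 2.92, MIXL1 2.90, TBXT 2.66, CER1 2.37, FGF8 2.15, LEFTY1 1.69, GSC 1.61, NODAL 1.22, EVX1 1.21, EOMES 1.09 and GDF3 1.03. MESP1 gave 2.96, a fitted value that rests on 3 counts at 36 h with BMP4. In the WNT and caudal group they were WNT8A 2.18, CDX1 2.10, DKK1 1.78, CDX2 1.75 and SP5 1.36. CDX2 itself was not called with BMP4, and its mean with Activin and BMP4 went from 4.79 ± 0.135 CPM to 1.11 ± 0.18 CPM (SD, n = 3).

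Genes of amnion and other epithelia gave EPAS1 4.65, PPARG 3.93, SPNS2 3.02, VTCN1 2.96, GABRP 2.94, IGFBP3 2.81, CLIC5 2.34, LRP2 2.07, KRT7 1.51, TFAP2A 1.18, ISL1 1.17 and ABCG2 1.06. TFAP2B gave a fitted 6.46, which is no bound because its 3 libraries with Activin and BMP4 at 48 h had no counts. Patterning and mesoderm genes gave ALDH1A2 2.83, DLX5 2.25, MEIS2 2.13, GDF6 2.05, COL3A1 2.00, MEIS1 1.98, GATA6 1.29 and FGF10 1.20. The pseudogene PPIAP46 gave 1.62.

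For 17 genes the change was greater with Activin and BMP4, or the fall greater with BMP4. Endoderm genes and others that rose there gave CD177 -3.73, LGR5 -3.41, CLVS2 -3.36, MAMLD1 -3.35, LIX1 -2.66, TMOD1 -2.63, CXCR4 -2.63, HHEX -2.54 and LHX1 -1.04. Mesenchymal and mesoderm genes gave DLL3 -1.48, VIM -1.43 and PDGFRA -1.02. The ERK phosphatases gave DUSP4 -1.91 and DUSP6 -1.30. DUSP4 stood at 10.3 ± 0.347 CPM and 23.3 ± 1.55 CPM with Activin and BMP4 (SD, n = 3). The others were PALM2AKAP2 -1.61, ADM -1.19 and GCNT4 -1.07. Calls of the difference that were lost without 1 library were ABCG2 (0.97 at the lowest), FGF10 (0.97), GDF6 (1.55), MEIS1 (1.59), MEIS2 (1.77), GCNT4 (-0.97), PDGFRA (-0.80 at the smallest), COL3A1 (adjusted p = 0.136), DLL3 (adjusted p up to 0.101), GDF3 (0.95 at the lowest), PALM2AKAP2 (9 of 12 libraries, adjusted p up to 0.151), VTCN1 (adjusted p up to 0.138), TFAP2B (adjusted p up to 1) and LHX1 (adjusted p up to 0.166). The library at issue was replicate 1 at 36 h with BMP4 for FGF10, replicate 1 at 48 h with BMP4 for GCNT4, and replicate 3 (COL3A1, GDF6, MEIS1) or 2 (MEIS2) at 36 h with Activin and BMP4. For ABCG2, DLL3, GDF3, PALM2AKAP2, PDGFRA, VTCN1, TFAP2B and LHX1 more than 1 library had this effect when left out. The VTCN1 call was also lost when the fit held just the groups compared (adjusted p = 0.0778). Leaving out 1 library moved some differences by over 1.5 times. Without replicate 1 at 36 h with BMP4 they were 4.50 for FGF17 and 2.75 for DKK1, and without replicate 2 of that group 3.81 for MESP1. With libraries of Activin and BMP4 left out, PALM2AKAP2 gave -2.20 (without replicate 2 at 36 h), TFAP2B 2.80 (without replicate 3 at 36 h) and VTCN1 4.26 (without replicate 3 at 48 h).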

How the results depend on the processing

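No alternative called a gene in the direction opposite to its main call. Changes of sign without a call were followed for the named genes only. The number called from 36 h to 48 h was 465 with RLE scaling, 585 with no filter on low counts (181 lower), 255 with the stricter filter (210 higher, 45 lower), 386 when the fit held just the 2 groups compared, and 392 with DESeq2, which shared 374 of the 461. With no fold threshold it was 3391 (2083 higher, 1308 lower). Leaving out each library gave 416 to 431, 324 to 336 higher and 90 to 103 lower. For 72 h versus 24 h the stricter filter gave 1478 (962 higher, 516 lower), no fold threshold 9894 (5281, 4613) and leaving out a library 2339 to 2566 (1474 to 1531, 861 to 1035). For the difference between treatments no filter gave 336 on the lower side, no fold threshold 1938 (1096, 842), and leaving out a library 371 to 422 (176 to 211, 180 to 218). A replicate block gave 463, with 457 of the 461 also called. Deviations correlated at -0.04, 0.04 and 0.13 between same-numbered libraries of the 2 BMP4 times, and at -0.175 to 0.125 between differently numbered ones. With Activin and BMP4 the same-numbered values were -0.134, -0.447 and -0.129, and the others ran from -0.189 to 0.303. With 3 libraries per group, these values cannot decide whether equal numbers mark a pairing.

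Among the genes named, direction flipped for 5 that were not called when 1 library was left out. Their log2 changes ran from -0.18 to 0.51 for CLVS2, -0.47 to 0.10 for HHEX, -0.40 to 0.38 for LIX1, -0.60 to 0.12 for MAMLD1 and -0.16 to 0.0077 for TMOD1. Depth limits the genes under 1 CPM at 36 h: with the stricter filter the HOX and CDX list kept 4 calls and the lateral plate, nascent mesoderm and WNT ligand lists 4 each, because fewer low genes were tested. DSP (1.01), TBX3 (1.02) and GREM1 (-1.06 and -1.16) passed 2-fold when 1 library was left out.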

Other observations

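Several gene groups outside the comparisons above also held genes called between 36 h and 48 h of BMP4. Among 21 MSX, DLX and IRX homeobox and related genes 4 were called higher, the 3 MEIS genes among them, and the median of 0.62 (0.55 with genes at 0 counts set to their bound) stood beside 0.0024 for all genes. DLX3 and DLX5 encode homeobox factors of surface epithelium and gave 0.83 ± 0.25 and 0.74 ± 0.16 on the log2 scale. Blood and endothelial genes gave 2 calls of 20, both higher, against 1.82% of all genes called higher. The median of the list was -0.21, and at any fold 3 genes passed the adjusted p higher and 3 lower. RUNX1, the regulator of blood formation, read 2.11, 2.22 and 2.66 CPM at 36 h and 5.04, 6.03 and 5.62 CPM at 48 h (log2 fold change 1.25 ± 0.22 SE, edgeR adjusted p = 2.08e-05). SOX7, an SRY-box factor of endothelium whose exons overlap PINX1, read 1.45, 0.683 and 1.01 CPM at 36 h and 2.79, 3.34 and 2.73 CPM at 48 h (2.82-fold). The 6 endothelial and blood markers together summed to 2.43 to 3.10 CPM at 36 h and 5.23 to 6.15 CPM at 48 h. RUNX1 averaged 2.33 CPM and 5.56 CPM of these sums. The other markers were near the floor and did not rise. Over the 3 libraries of each time, CDH5 went from 8 to 3 counts and TAL1 from 14 to 6. GATA1, which defines the erythroid line, went from 4 counts to 0, and PECAM1 and HBE1 had 2 counts at each time.

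Other groups were represented by 1 or 2 genes each. Over all genes tested, 1.82% were called higher and 0.531% lower, so a single call says little about a list of this size. COL3A1, a fibrillar collagen, was the member called among 30 collagen and basement membrane genes, at 0.483, 0.341 and 0.605 CPM at 36 h and 1.32, 0.977 and 1.12 CPM at 48 h (log2 1.24 ± 0.36). ANKRD1, a YAP target, was the member called among 16, at 27.9, 32.9 and 34.1 CPM at 36 h and 61.9, 63.6 and 67.5 CPM at 48 h (log2 1.02 ± 0.22). AFP, the albumin-like protein of yolk sac endoderm, was called lower at 1.71, 2.09 and 1.94 CPM at 36 h and 0.93, 1.02 and 0.868 CPM at 48 h (log2 -1.02 ± 0.20) among 14 genes tested. LRP2, the other member called on that list, was higher. The HOX genes not described above rose in part: HOXB5 rose by 3.52 ± 0.71, HOXB9 by 1.66 ± 0.37 and HOXC13, a posterior gene of another cluster, by 2.19 ± 0.38 on the log2 scale. TBX20, a T-box factor of the heart, rose by 1.46 ± 0.49, and MESP2, the neighbour of MESP1, by 2.99 ± 0.62. Of these genes, COL3A1 lost its call without replicate 1 at 48 h (1.11) or 2 at 36 h (1.04), ANKRD1 without replicate 3 at 48 h (0.99) or 1 at 36 h (0.93), and AFP without replicate 3 at 48 h (-0.97) or 2 at 36 h (-0.97). TBX20 lost it without replicate 1 at 48 h (1.10) or replicate 1 (0.99) or 3 (1.39) at 36 h, and when the fit held just the groups compared (adjusted p = 0.0942). Without replicate 2 at 36 h its change was 2.26.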
